A study of Homo sapiens with 36 samples.

Results

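The synthetic liver X receptor (LXR) agonist GW3965 was compared with its vehicle, DMSO, in MIA PaCa-2, an established line of human pancreatic ductal adenocarcinoma. The comparison takes the 3 libraries of this line labelled GW3965 and the 3 labelled DMSO, which are 6 of the 36 libraries of the series. GW3965 was given at 10 µM for 48 h, and the vehicle for the same time. All the MIA PaCa-2 cultures were kept in high-glucose DMEM with HEPES and 10% fetal bovine serum. The line's genotype is given as not applicable, and the labels name no engineered allele. The rest of the series holds the same line with the compounds 1E5 and 3A4, labelled LXR inverse agonists, and the lines BxPC-3 and PANC-1 with all 4 treatments. Expression was measured by sequencing of stranded total RNA libraries and deposited as read counts per gene. The titles call the 3 libraries of a group biological replicates. Whether each had its own culture is not said, so a p-value here reflects only how far libraries scatter, which may be technical. In the main test that scatter is estimated over all 12 libraries of the line, those with 1E5 and 3A4 included.

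The LXRs, encoded by NR1H3 (LXRα) and NR1H2 (LXRβ), are nuclear receptors that bind oxysterols and pair with a retinoid X receptor on DNA. They are known for switching on cholesterol export through ABCA1 and ABCG1 and fatty acid synthesis through SREBF1 and its targets. A separate program, the integrated stress response, acts through the transcription factor ATF4, which is made when translation initiation is slowed and which drives genes for amino acid synthesis, uptake and tRNA charging.

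Depth was uneven. The DMSO libraries held 6512881, 10996848 and 3609582 counts in replicates 1, 2 and 3, and the GW3965 libraries 4587871, 13631719 and 2701393, so replicate 3 was the shallowest of each group and replicate 2 the deepest. Of the 16254 genes tested, 391 to 1796 had a count of 0 in a given library, most in GW3965 replicate 3. The line's own markers were present, with VIM at 8038 to 13192 CPM (counts per 1000000, scaled by the TMM method of edgeR), and 9 of 17 markers of other cell types were at 0 in all 6 libraries, PTPRC, CD3E, PECAM1, PRSS1 and INS among them. Of the 8 that had counts, COL1A2, a collagen of fibroblasts, was at 245 to 249.8 CPM with DMSO and 199 to 229 CPM with GW3965. It made up most of the summed level of the list, which was 311 to 324 CPM with DMSO and 242 to 260 CPM with GW3965. CDH5, an endothelial cadherin, was at 21.5 to 25.6 CPM with DMSO and 3.07 to 11.6 CPM with GW3965, below in every library without passing (log2 -1.80 ± 0.68, adjusted p = 0.445). Mitochondrially encoded genes took 7.53%, 7.58% and 7.52% of the counts with DMSO and 6.49%, 6.03% and 7.11% with GW3965. The groups do not overlap, and an exact two-sided permutation test gave p = 0.1, the smallest that 3 against 3 libraries can give. In bulk RNA, fewer cells of a kind and less RNA per cell cannot be told apart.

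GW3965 raised 68 genes and lowered 17 in MIA PaCa-2. These 85 are 0.523% of the genes tested, with 0.418% higher and 0.105% lower (edgeR quasi-likelihood test on all 12 libraries of the line, Benjamini-Hochberg adjusted p under 0.05). By at least 2-fold, 57 rose and 14 fell. A gene that passed in this way is said to be called. Of the 68 that rose, 12 belong to lists of LXR targets and lipid metabolism and 26 to lists of the integrated stress response, amino acid supply and folate metabolism. All gene lists were chosen with earlier results of these data known. The GW3965 libraries all lay above the DMSO libraries for 66 of the 68 higher genes and below for all 17 lower ones, where 6.65% of all genes tested lay above and 7.08% below in the same sense. The median log2 fold change of all genes was -0.0014, and 1420 genes had an unadjusted p under 0.05.

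**Figure D1:**
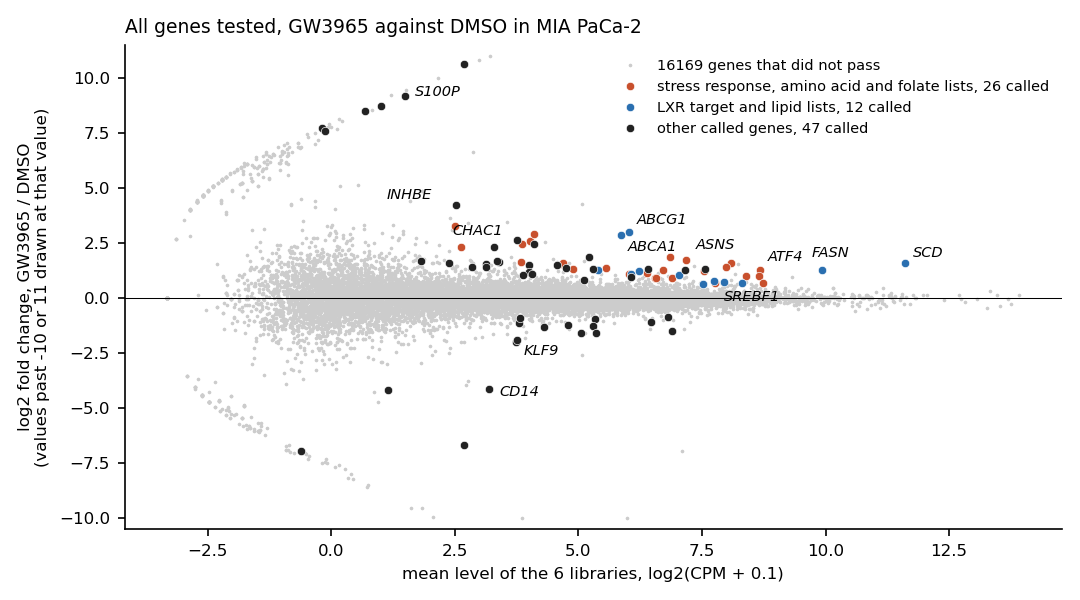
Each point is 1 of 16254 genes, placed by its mean level in the 6 libraries and its log2 fold change in MIA PaCa-2. The 85 called genes are coloured by the kind of list they belong to, with 26 in the stress response, amino acid and folate lists and 12 in the LXR target and lipid lists. Genes at 0 in all libraries of 1 group form the outer bands, where the fitted value is no measure of the size of a change.

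The count depended on single libraries. It was 32, 16 and 29 without DMSO replicates 1, 2 and 3, and 24, 36 and 85 without GW3965 replicates 1, 2 and 3. All 85 genes kept their direction in the 6 fits that left out 1 library. The call held in all 6 for 11 genes, among them ABCA1, FASN, SCD, ATF4, CEBPG, JDP2, ASNS, PSAT1, KLF9 and TSC22D3. It held in 5 for 4 genes, in 1 to 4 for 53 and in none for 17. Of the 85 calls, 57, 73 and 60 were lost without DMSO replicates 1, 2 and 3, and 65, 64 and 23 without GW3965 replicates 1, 2 and 3.

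Of the receptors themselves, NR1H2 stood at 43.3, 34.3 and 45.3 CPM with DMSO and 40.8, 40.1 and 37.6 CPM with GW3965. The groups overlap, and the log2 difference was -0.04 with a 95% interval of -0.35 to 0.26. NR1H3 stood at 3.38, 4.38 and 4.93 CPM with DMSO and 6.73, 2.95 and 8.82 CPM with GW3965, again with overlap (log2 0.49 ± 0.42 SE, edgeR adjusted p = 0.84). Per kilobase of exon, the DMSO level of NR1H2 was 10.9 CPM and that of NR1H3 was 0.933 CPM. None of the 13 receptor and coregulator genes tested passed by edgeR, DESeq2 or limma-voom, 0 had an unadjusted p under 0.05, and their median log2 fold change was 0.02. RXRA, a partner of both receptors, was at 81.9, 79 and 78 CPM with DMSO and 68.4, 77.4 and 60.2 CPM with GW3965, which is lower in every library but did not pass (adjusted p = 0.738).

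The sterol exporters showed the largest rises among the 16 LXR targets tested. ABCA1 (ENSG00000165029, GRCh38 chromosome 9, 104781002 to 104928237), which hands cellular cholesterol to lipid-poor apolipoproteins, was at 15, 16.5 and 8.99 CPM with DMSO and at 105, 129 and 73.3 CPM with GW3965. Replicate 3 was the lowest of each group, and the groups were far apart, at log2 2.90 ± 0.34 SE (7.45-fold, edgeR adjusted p = 0.0038). ABCG1 (ENSG00000160179, chromosome 21, 42199689 to 42297244), which exports sterol to lipoprotein particles, was at 17.1, 11.7 and 14.2 CPM with DMSO and 111, 145 and 90.5 CPM with GW3965. This is a difference of log2 3.03 ± 0.40 (8.15-fold, adjusted p = 0.00773), and the call was lost without DMSO replicate 2 (adjusted p = 0.0547). Of 21 listed LXR targets, 16 had enough counts to test and 3 rose (ABCA1, ABCG1 and SREBF1), where 0.418% of all genes tested rose. The median log2 fold change was 0.39 over the 16 targets, against -0.0014 over all genes. The 5 others, ABCG5, ABCG8, APOD, LPL and CETP, had too few counts to test.

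In some members that did not pass, the groups still lay apart. MYLIP, the ubiquitin ligase that degrades the LDL receptor, was at 12.2, 10.8 and 11.9 CPM with DMSO and 19.3, 21.6 and 18.4 CPM with GW3965 (log2 0.77 ± 0.19, adjusted p = 0.141). LPCAT3, which loads polyunsaturated chains into phospholipids, was at 53.8, 69.6 and 71.1 CPM with DMSO and 98.9, 126 and 100.1 CPM with GW3965 (log2 0.75 ± 0.21, adjusted p = 0.209). Both were higher in every GW3965 library than in every DMSO library, and are among 7 of the 16 tested targets for which this held. It held for 6.65% of all genes tested. The lowest member of the list was at a log2 fold change of -0.56 and did not pass.

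**Figure D2:**
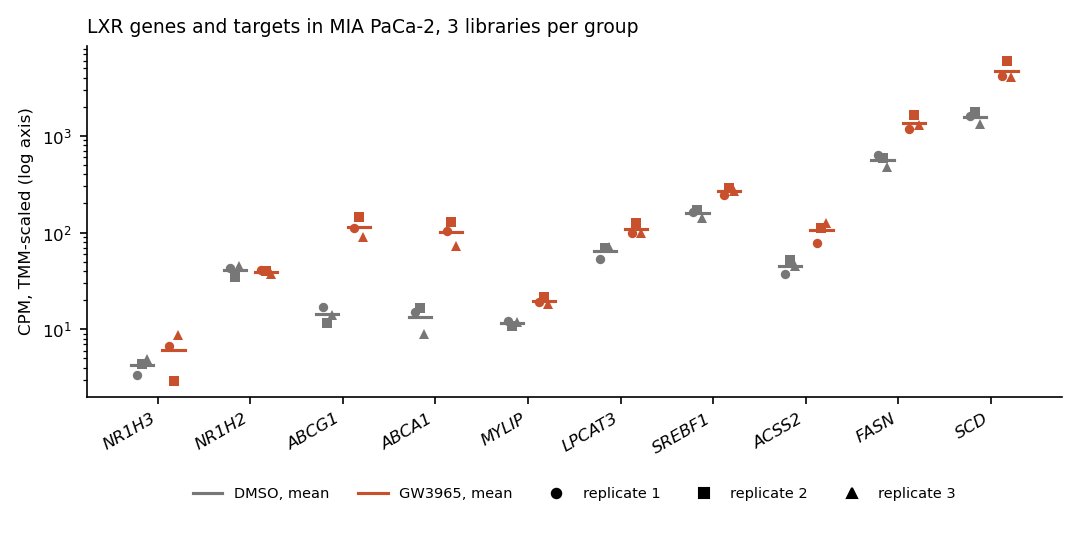
Levels of the receptor genes and of LXR targets in CPM on a log axis, with 1 symbol per library and a bar at the mean of 3. The GW3965 libraries sit above the DMSO libraries for ABCG1, ABCA1, MYLIP, LPCAT3, SREBF1, ACSS2, FASN and SCD, and the groups overlap for NR1H3 and NR1H2.

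In fatty acid synthesis 4 of 16 tested genes rose and none fell, where 0.418% of all genes tested rose. SREBF1, the transcription factor of lipogenic genes and itself an LXR target, was at 162, 170 and 141 CPM with DMSO and 245, 292 and 271 CPM with GW3965 (log2 0.77 ± 0.13, adjusted p = 0.0219). SCD, the desaturase that makes oleate, was the most abundant of them, at 1594, 1756 and 1331 CPM with DMSO and 4150.1, 5881 and 4024 CPM with GW3965. FASN, the palmitate synthase, was at 632, 597 and 478 CPM with DMSO and 1192, 1632 and 1292 CPM with GW3965. None of these groups overlap, and SCD and FASN passed at adjusted p = 0.00632 each, at log2 1.59 ± 0.20 and 1.27 ± 0.16. The remaining riser was ACSS2, which makes acetyl-CoA from acetate, at 37.3, 52.4 and 44.7 CPM with DMSO and 78.1, 113 and 126 CPM with GW3965 (log2 1.23 ± 0.22, adjusted p = 0.0319). Over the 16 genes the median log2 fold change was 0.53, and 9 of them lay above in every library, where 6.65% of all genes tested did. The SREBF1 and ACSS2 calls each held in only 1 of the 6 fits without a library, SREBF1 without GW3965 replicate 3 and ACSS2 without GW3965 replicate 1.

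Of the long-chain acyl-CoA synthetases 2 rose. ACSL1 was at 50.9, 43.3 and 32.5 CPM with DMSO and 91.5, 89.7 and 91.7 CPM with GW3965 (log2 1.10 ± 0.17, adjusted p = 0.0141). ACSL3, which channels fatty acids into phospholipids and lipid droplets, went from 79, 90.9 and 87.3 CPM to 191, 167 and 177 CPM (log2 1.05 ± 0.19, adjusted p = 0.0319). The groups are apart for both, and they were the only members called among 9 genes of polyunsaturated fatty acid metabolism, whose median log2 fold change was 0.69. Of these 9 genes, 5 lay above in every library and 0 below, where 6.65% and 7.08% of all genes tested did. The share of all genes tested that rose was 0.418%. In the lipid droplet and PPAR list 2 of 12 tested genes rose, and the median was 0.16. They were CPT1A, the carnitine transferase of the outer mitochondrial membrane, by log2 1.27 ± 0.25 (adjusted p = 0.0482), and ACADVL, a very-long-chain acyl-CoA dehydrogenase, by log2 0.71 ± 0.13 (adjusted p = 0.0339). Of the fits without a library, the ACSL1 call held in 4, that of CPT1A in 1, and those of ACSL3 and ACADVL in 0.

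In cholesterol synthesis 2 of 20 tested genes rose, by smaller amounts, where 0.418% of all genes tested rose. FDPS, which makes farnesyl diphosphate, was at 195, 174 and 186 CPM with DMSO and 264, 304 and 354 CPM with GW3965 (log2 0.73 ± 0.15, adjusted p = 0.049). FDFT1, the squalene synthase that uses it, was at 143, 129 and 157 CPM with DMSO and 221, 225 and 225 CPM with GW3965 (log2 0.65 ± 0.12, adjusted p = 0.0321). Neither call held in any fit that left out 1 library, and none of the 20 fell. Over the 20 the median log2 fold change was 0.57, 17 were positive, and 11 lay above the DMSO libraries in every GW3965 library. Of all genes tested, 7999 of 16254 were positive and 6.65% lay above in this sense. INSIG1, which holds the SREBP precursors in the endoplasmic reticulum and is itself induced by SREBPs, was at 44.7, 46 and 93.1 CPM with DMSO and 106, 108 and 187 CPM with GW3965. It is higher in every library, but replicate 3 was the highest of each group and the test was not passed (log2 1.13 ± 0.33, adjusted p = 0.257). None of the 8 genes of cholesterol uptake and SREBP2 control passed by edgeR, with 3 at an unadjusted p under 0.05 and 1 called by DESeq2. Of all 16254 genes tested, 1420 had such a p, and DESeq2 called more of them than edgeR did.

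The stress response genes rose in larger numbers. Of 28 tested in its 2 lists, 14 rose and none fell, where 0.418% of all genes rose, and their median log2 fold change was 1.30. Since the lists were chosen with earlier results of these data known, these shares are a description and no test. Every GW3965 library was above every DMSO library for 20 of the 28, where this held for 6.65% of all genes tested. ATF4 (ENSG00000128272, chromosome 22, 39519695 to 39522685), the central transcription factor, was at 255, 218 and 236 CPM with DMSO and 599.8, 649 and 499.6 CPM with GW3965. The groups are apart, at log2 1.30 ± 0.13 (2.47-fold, adjusted p = 0.00235). CEBPG, a dimer partner of ATF4, went from 55.7, 48.5 and 52.8 CPM to 121, 128 and 99 CPM (log2 1.15 ± 0.13, adjusted p = 0.0038). JDP2, a repressor of the AP-1 family, went from 1.29, 2.66 and 2.03 CPM to 10.5, 10.1 and 9.98 CPM (log2 2.32 ± 0.34, adjusted p = 0.0141). CEBPB and DDIT3 (CHOP), which act downstream, rose by log2 1.09 ± 0.16 and 1.34 ± 0.26 (adjusted p = 0.0127 and 0.0453). The calls of ATF4, CEBPG and JDP2 held in all 6 fits without a library, that of CEBPB in 4 and that of DDIT3 in 1. The 4 kinases that start the response, EIF2AK1 to EIF2AK4, had log2 fold changes of -0.17 to 0.07 and did not pass. Such kinases are known to be controlled by activity, which RNA levels do not measure.

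Effectors of the response covered a wide range of sizes. CHAC1, which breaks down glutathione, was at 4.67, 4.38 and 4.06 CPM with DMSO and 33.9, 24.5 and 15 CPM with GW3965 (log2 2.49 ± 0.40, adjusted p = 0.0166). TRIB3, a pseudokinase that restrains ATF4, was at 51.8, 47.7 and 47.9 CPM with DMSO and 192, 230.1 and 122 CPM with GW3965 (log2 1.89 ± 0.33, adjusted p = 0.0283). In both the GW3965 libraries are all higher, and replicate 3 is the lowest of them. VLDLR, a lipoprotein receptor, rose by log2 1.67 ± 0.26 (adjusted p = 0.0153), CTH, which makes cysteine from cystathionine, by 1.56 ± 0.26 (0.0237), and VEGFA, the angiogenic factor, by 1.30 ± 0.21 (0.0219). Without a library, the VLDLR call held in 3 fits and those of CHAC1, TRIB3, CTH and VEGFA in 1 each, which was the fit without GW3965 replicate 3. GDF15, a stress-induced cytokine, went from 6.12, 3.71 and 1.45 CPM to 32.7, 30.2 and 28 CPM (log2 2.93 ± 0.54, adjusted p = 0.0321), with a call that was lost in each of the 6 fits without a library. INHBE, an activin subunit outside these lists that ATF4 is known to induce, was at 0.966, 0.571 and 0 CPM with DMSO and 14.1, 13.5 and 4.6 CPM with GW3965. Its log2 difference was 4.23 ± 0.59 (adjusted p = 0.0109), and the call was lost without DMSO replicate 2 (adjusted p = 0.0776). The other 3 effectors that rose were DDIT4 and SESN2, which act on the growth kinase mTORC1, and EIF4EBP1, a substrate of that kinase. These 3 are named outside the naming rule, after their values were seen.

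Of 47 amino acid supply genes tested 10 rose. ASNS, asparagine synthetase, was at 80.5, 64.7 and 55.4 CPM with DMSO and 227, 281 and 159.6 CPM with GW3965 (log2 1.74 ± 0.20, adjusted p = 0.0038). In the serine pathway, PSAT1 went from 137, 147 and 123 CPM to 422, 550.2 and 259 CPM (log2 1.60 ± 0.22, adjusted p = 0.00864) and PHGDH from 124, 114 and 95.2 CPM to 266, 332 and 192 CPM (log2 1.25 ± 0.22, adjusted p = 0.0283). The groups are apart for all 3 genes, with replicate 3 the lowest of the GW3965 libraries. BCAT1, the cytosolic branched-chain aminotransferase, was at 1.45, 1.33 and 0 CPM with DMSO and 9.64, 16.1 and 4.99 CPM with GW3965 (log2 3.31 ± 0.52, adjusted p = 0.0153). With these 4 of 14 synthesis genes, the transporters SLC7A11, SLC1A4 and SLC3A2 rose out of 13, and the tRNA synthetases AARS1, CARS1 and GARS1 out of 20. SLC7A11, the cystine importer, was at 5.96, 5.04 and 2.61 CPM with DMSO and 36.3, 37 and 9.98 CPM with GW3965 (log2 2.60 ± 0.41, adjusted p = 0.0153), and SLC3A2, its heavy chain, rose by 0.92 ± 0.18 (adjusted p = 0.0491). The synthetases rose by log2 0.70 to 1.02. Over the 47 genes of the 3 lists, 10 rose, none fell and the median was 0.59. Of all genes tested, 0.418% rose and the median log2 fold change was -0.0014. Every GW3965 library was above every DMSO library for 22 of the 47, where this held for 6.65% of all genes tested. Another 2 lay below in every library, where 7.08% of all genes did. The ASNS and PSAT1 calls held in all 6 fits without a library and the other 8 in 1 to 3 of them.

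In folate metabolism the genes that rose were mitochondrial. SHMT2, which splits serine in mitochondria, went from 180.3, 167 and 151 CPM to 263, 292 and 251 CPM (log2 0.69 ± 0.13, adjusted p = 0.045). MTHFD2, the next enzyme, went from 232, 226 and 213 CPM to 478, 526 and 342 CPM (log2 1.00 ± 0.16, adjusted p = 0.0153). The groups are apart for both, and they were the only 2 called of 14 folate genes, where 0.418% of all genes tested rose. Of the 14, 6 were negative. In every GW3965 library 4 lay above and 3 below the DMSO libraries, where 6.65% and 7.08% of all genes tested did. Their cytosolic counterparts SHMT1 and MTHFD1, chosen after their values were seen, had log2 fold changes of -0.19 and -0.22 and did not pass. The difference between the arms was not tested. Without a library, the MTHFD2 call held in 1 of the 6 fits and that of SHMT2 in 0.

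The rise of these genes over the DMSO mean was uneven across the GW3965 libraries. For all 26 stress response, amino acid and folate genes that rose, GW3965 replicate 3, the shallowest library, was the lowest of the 3. Their median log2(CPM + 1) above the DMSO mean was 1.41, 1.71 and 0.901 in GW3965 replicates 1, 2 and 3. For the 10 LXR target, fatty acid and cholesterol genes that rose, the same medians were 1.10, 1.21 and 1.16, and replicate 3 was the lowest for 3 of them. Over all 68 higher genes replicate 3 was the lowest for 53, while over all genes tested it was the lowest for 6578 of 16254. By list median, DMSO replicate 3 was also the lowest of its group, by smaller amounts. The deviations from the DMSO mean in DMSO replicates 1, 2 and 3 were 0.085, 0.0187 and 0.00117 for the stress response lists. For the amino acid lists they were 0.11, 0.0452 and -0.138. The part of depth, or of a shift shared by the replicate 3 libraries, was not tested. Without that library 14 members of the stress response lists were called, 13 of them among the 14 called with all libraries, while GDF15 was lost and ATF5, named after its value was seen, was gained. The count was 3 to 5 without any 1 of the other libraries (5, 3 and 5 without DMSO replicates 1, 2 and 3, and 3 and 4 without GW3965 replicates 1 and 2). The amino acid lists gave 14 calls without it, including all 10 of those made with every library, and 2 to 4 without any 1 of the others.

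**Figure D3:**
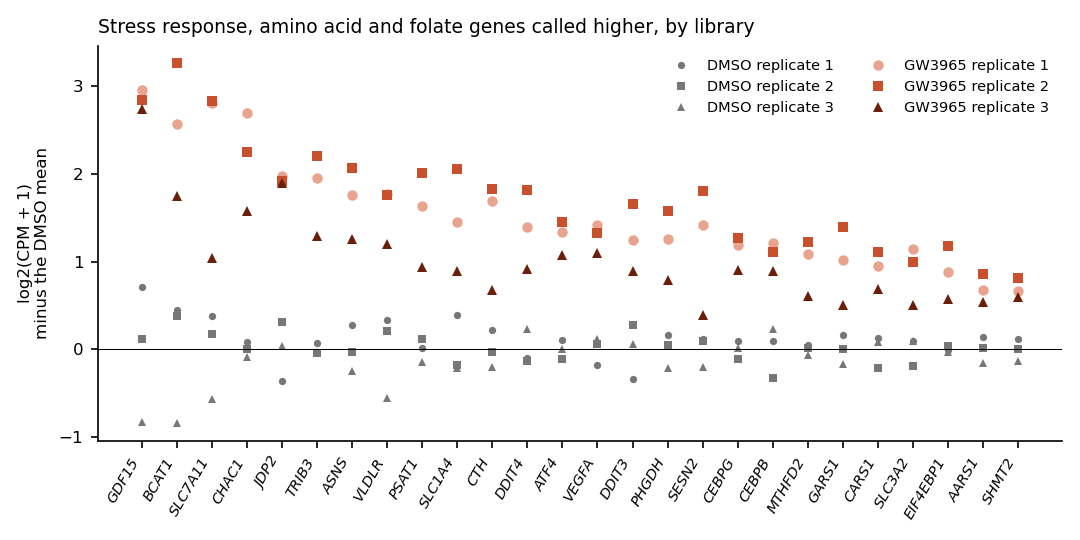
Each library's log2(CPM + 1) minus the mean of the 3 DMSO libraries, for the 26 stress response, amino acid and folate genes that rose in MIA PaCa-2. The darkest triangles, GW3965 replicate 3, are the lowest of the 3 GW3965 symbols for all 26 genes, and all GW3965 symbols lie above the grey DMSO symbols.

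The list of endoplasmic reticulum chaperones and other genes of the unfolded protein response had a median log2 fold change of 0.00. XBP1, a transcription factor of the unfolded protein response, was the 1 called of 21, at 67.1, 33.5 and 45.8 CPM with DMSO and 127, 142 and 94.4 CPM with GW3965 (log2 1.32 ± 0.26, adjusted p = 0.048). Every GW3965 library is higher than every DMSO library. The call held in 2 of the 6 fits without a library, and the counts do not separate its spliced from its unspliced form. Among 17 targets of NRF2, the oxidative stress regulator, SLC7A11 alone was called, and the median was 0.31. None of the 15 p53 targets passed by edgeR, with 4 at an unadjusted p under 0.05 and 1 called by DESeq2. Such a p was reached by 1420 of all 16254 genes tested. CDKN1A, the cell cycle inhibitor, was at 5.79, 3.04 and 2.32 CPM with DMSO and 8.97, 8.15 and 6.91 CPM with GW3965 (log2 1.09 ± 0.32, adjusted p = 0.268).

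Short motifs were searched in RefSeq windows (GRCh38.p14) of 250 bases before to 50 bases after each gene's start, on both strands. The first is the composite element bound by ATF4 with C/EBP factors, read here as TGATG, any base, then AA. The second is the site type of LXR with its partner, read as 2 copies of AGGTCA in the same direction with 4 bases between them and at most 1 mismatch in each. The stretches below, of up to 30 bases, run 5′ to 3′ on the strand of the gene and show where the match, in capitals, lies in genes that rose. On the opposite strand the same element reads as its reverse complement, as in CHAC1, AARS1, ABCA1 and ACSL3.
ASNS, chr7:97872458-97872487, minus strand: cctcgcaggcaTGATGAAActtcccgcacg
CEBPG, chr19:33374060-33374089, plus strand: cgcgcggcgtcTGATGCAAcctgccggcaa
BCAT1, chr12:24949131-24949160, minus strand: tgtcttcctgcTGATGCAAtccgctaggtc
JDP2, chr14:75427995-75428021, plus strand: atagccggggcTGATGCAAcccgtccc
CHAC1, chr15:40953251-40953280, plus strand: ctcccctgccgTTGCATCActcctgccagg
AARS1, chr16:70289675-70289704, minus strand: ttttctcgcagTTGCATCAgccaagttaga
ABCA1, chr9:104928202-104928231, minus strand: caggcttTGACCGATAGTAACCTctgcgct
ACSL3, chr2:222860857-222860886, plus strand: cgcggaaTGACCCGTAGTAACCTcgccccg
The ASNS match begins 68 bases before the RefSeq start and the ABCA1 match 69 bases before it. In GENCODE release 29, the ASNS, BCAT1, CHAC1 and ABCA1 matches lie in an exon of a longer transcript of the same gene, those of CEBPG and JDP2 in an intron, that of AARS1 in an exon of its neighbour DDX19B, and that of ACSL3 between genes.

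The ATF4 type motif was found in 12 of the 89 windows of genes that rose (13.5%; 49 of the 68 genes had a window), in 0 of 23 windows of genes that fell, and in 306 of 15788 windows of all genes tested (1.94%). Over all 35116 windows it was found in 3.62%. The 12 genes were AARS1, ASNS, BCAT1, CARS1, CEBPG, CHAC1, GARS1, IFRD1, JDP2, S100P, SLC1A4 and SLC3A2, of which 7 belong to the amino acid lists and 3 to the stress response lists. The LXR type motif was found in 2 of the 89 windows of genes that rose (2.25%; ABCA1 and ACSL3). It was found in 2 of 23 windows of genes that fell (8.7%; COQ10A and TP53INP2) and in 1.08% of windows of genes tested. ABCG1 and SREBF1 held no match to these letters in their windows. A match is a likeness of letters, and binding was not measured.

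Some of the largest changes fell outside these pathways. S100P, a calcium-binding protein, had a count of 0 in all DMSO libraries and 4.93, 3.96 and 7.29 CPM with the agonist. Against a floor of 3 counts over the DMSO libraries it was at least 36.3-fold higher (adjusted p = 0.0172), and it was the 1 called of 9 S100 genes. UNC5B, a netrin receptor, went from 4.99, 2.38 and 4.64 CPM to 19.5, 33.8 and 15.7 CPM (log2 2.66 ± 0.41, adjusted p = 0.0151). LHFPL6, a membrane protein of the tetraspan kind, was likewise at 0 in all DMSO libraries and at 2.69, 4.81 and 1.53 CPM with the agonist, which is at least 20.3-fold higher (adjusted p = 0.0141). IL1B, the inflammatory cytokine, was the 1 called of 12 NF-kB and chemokine genes, at 9.82, 7.04 and 8.12 CPM with DMSO and 31.6, 23.5 and 15.7 CPM with GW3965 (log2 1.53 ± 0.27, adjusted p = 0.0293). Without a library, the LHFPL6 call held in 5 of 6 fits, those of S100P and UNC5B in 3 and that of IL1B in 1. Of the other genes at 0 in all DMSO libraries, SULF2 and the read-through gene PEDS1-UBE2V1 were also at 0 in GW3965 replicate 3 and are the 2 called genes whose groups overlap. They are named after their values were seen, as is the pseudogene NMRAL2P, at least 25.7-fold higher. How reads shared by overlapping or near-identical genes were counted is not known, so values of the read-through gene and the pseudogene are uncertain.

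The genes that fell were fewer, and no list held more than 1 of them. KLF9, a transcription factor known as a glucocorticoid and thyroid hormone target, was at 22.9, 20 and 20.9 CPM with DMSO and 5.61, 5.20 and 5.37 CPM with GW3965. Its spread was small in both groups and its fall of log2 -1.98 ± 0.19 (3.95-fold lower, adjusted p = 0.00235) was kept in every fit that left out a library. It was the 1 called of 13 KLF genes. TSC22D3 (GILZ), also known to be induced by glucocorticoids, went the other way, from 6.12, 4.66 and 4.64 CPM to 25.6, 27.3 and 34.5 CPM (log2 2.49 ± 0.32, adjusted p = 0.00632). It was picked with its values in view, outside the rule for naming genes.

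CD14, a receptor for bacterial lipopolysaccharide best known from monocytes, was at 14.2, 19.1 and 18.6 CPM with DMSO and 1.57, 1.01 and 0 CPM with GW3965. This was a fall of log2 -4.14 ± 0.75 (adjusted p = 0.0319) that was lost in each of the 6 fits without a library. Of the other leukocyte markers, PTPRC and CD3E were at 0 in all 6 libraries, and CD68, known from macrophages and lysosomes, was at 6.92 to 16.5 CPM with DMSO and 4.81 to 24.2 CPM with GW3965, with overlap. Without CD14, the summed level of the 16 other markers of other cell types was 295 to 305 CPM with DMSO and 241 to 259 CPM with GW3965. OSR1, a developmental transcription factor, went from 55.7, 48 and 44.1 CPM to 23.6, 11.9 and 14.2 CPM (log2 -1.59 ± 0.25, adjusted p = 0.016). COQ10A, a coenzyme Q binding protein, went from 14, 18.9 and 30.8 CPM to 4.71, 6.36 and 5.76 CPM (log2 -1.89 ± 0.32, adjusted p = 0.0272), with the DMSO libraries the more spread. PRSS23, a serine protease, and TUBB6, a β-tubulin, fell, at log2 -1.56 ± 0.28 and -1.50 ± 0.29 (adjusted p = 0.0313 and 0.045). ODAD3, of the dynein docking complex of cilia, was at 3.54, 3.62 and 5.22 CPM with DMSO and at 0, 0.388 and 0 CPM with GW3965 (adjusted p = 0.0372). The transcript ENSG00000273333 was at 6.44, 16.4 and 14.8 CPM against 0.224, 0 and 0.384 CPM (adjusted p = 0.0478), and is uncertain because it overlaps another gene. Without a library, the OSR1 call held in 3 of 6 fits, that of TUBB6 in 2, that of COQ10A in 1, and those of PRSS23, ODAD3 and this transcript in 0.

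No gene of DNA replication or mitosis passed by edgeR. All 35 DNA replication genes tested had a negative log2 fold change, with a median of -0.43, and 14 lay below the DMSO libraries in every GW3965 library. An unadjusted p under 0.05 was reached by 15 of them, and neither edgeR, DESeq2 nor limma-voom called any. Of all 16254 genes tested, 8153 were negative, 7.08% lay below in the same sense and 1420 had an unadjusted p under 0.05. MCM2, a helicase subunit, was at 346, 372 and 253 CPM with DMSO and 228, 218 and 175 CPM with GW3965 (log2 -0.64 ± 0.19, adjusted p = 0.249). PCNA, the polymerase clamp, was at 288, 362 and 279 CPM with DMSO and 211, 209.5 and 191 CPM with GW3965 (log2 -0.60 ± 0.18, adjusted p = 0.252). Both were lower in every GW3965 library, and the median difference of the 35 genes from the DMSO mean was -0.234, -0.474 and -0.684 in GW3965 replicates 1, 2 and 3. In DMSO replicates 1, 2 and 3 it was 0.0541, 0.169 and -0.217, so replicate 3 was the lowest of each group. Of 25 mitosis genes 21 were negative, with a median of -0.31, 7 had an unadjusted p under 0.05, and DESeq2 called 1. All 13 mitochondrially encoded genes tested were negative, at a median of -0.34, and none passed by edgeR or DESeq2, with 2 at an unadjusted p under 0.05. The ribosomal protein genes had a median of 0.06.

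**Figure D4:**
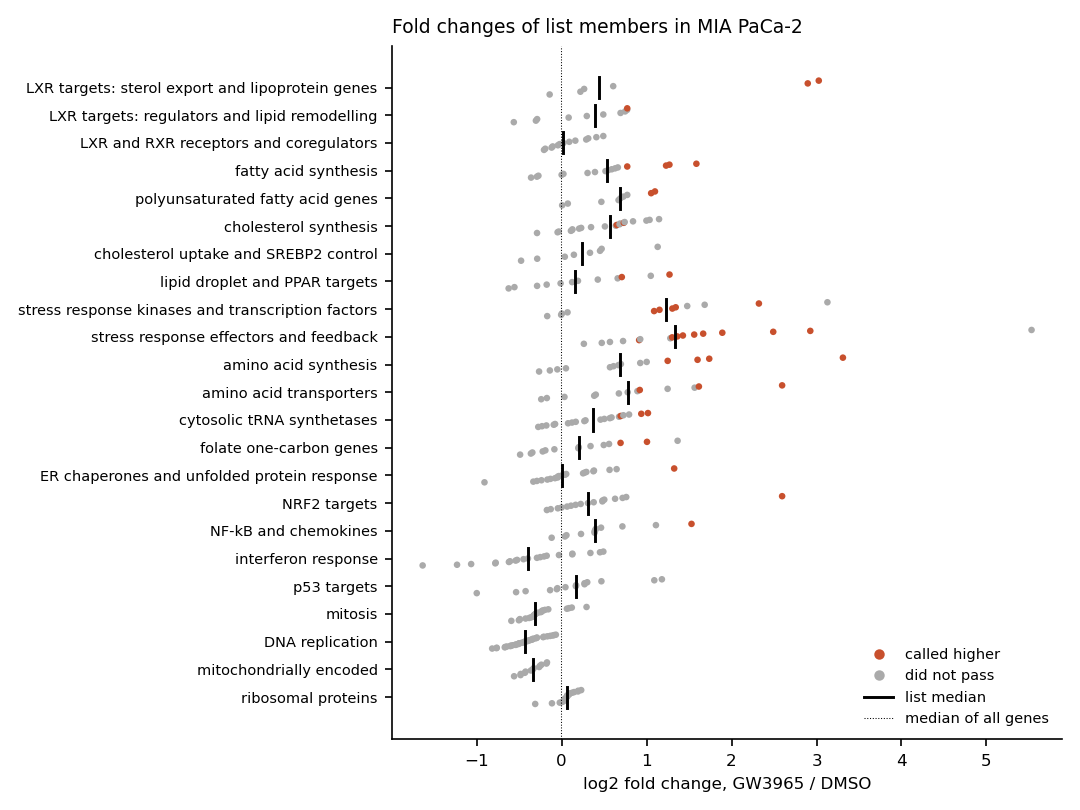
Log2 fold changes of the tested members of 23 gene lists in MIA PaCa-2, 1 point per gene, with a black bar at each list's median and a dotted line at the median of all genes. The stress response lists have the highest medians, at 1.23 and 1.33, and the DNA replication list the lowest, at -0.43, with no member called.

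The same agonist was given to BxPC-3 and PANC-1, also with 3 libraries per group at 10 µM for 48 h, and the response was compared in 1 fit of all 36 libraries. It differed among the lines for 23 of 22132 genes (0.104%; edgeR interaction test, 2 degrees of freedom). Against BxPC-3 alone 36 genes differed (0.163%), and against PANC-1 alone 2 did (0.00904%), LHFPL6 and SULF2. Of the 85 genes called in MIA PaCa-2, 8 differed: ABCG1, LHFPL6, S100P, SULF2, UNC5B, GDF15, BCAT1 and ABCC3. BxPC-3 was grown in another medium, RPMI 1640, so for that line the cells and the medium cannot be told apart.

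ABCG1 was not called in BxPC-3, where it was at 9.13, 11.8 and 6.25 CPM with DMSO and 6.84, 13.2 and 6.50 CPM with GW3965. The difference from MIA PaCa-2 was log2 3.10 ± 0.52 (adjusted p = 0.00466). In PANC-1 it went from 1.14, 1.54 and 0.815 CPM to 42.3, 43.6 and 38.7 CPM, a rise larger than in MIA PaCa-2 by log2 2.11 ± 0.54 that did not pass (adjusted p = 0.248). In MIA PaCa-2 the mean ABCG1 level with agonist was 115.6 ± 27.7 CPM (SD, n = 3). Levels were scaled within each line, so levels set side by side across lines are approximate.

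UNC5B was at 47.2, 74.8 and 54.3 CPM with DMSO in BxPC-3, above MIA PaCa-2 with agonist, and at 41.6, 66.7 and 57.9 CPM with GW3965 there, so the groups overlap. In PANC-1 it was at 2.17, 2.64 and 1.63 CPM with DMSO and 3.40, 4.24 and 2.69 CPM with GW3965. LHFPL6, at 0 in the DMSO libraries of MIA PaCa-2, was at 15.6, 11.2 and 9.26 CPM with DMSO in BxPC-3 and 24.9, 25.6 and 25.9 CPM in PANC-1. In those lines its log2 fold changes were 0.30 and -0.02, with no call. GDF15 stood at 34.2 to 39.6 CPM with DMSO in BxPC-3 and 123 to 167 CPM in PANC-1, against 1.45 to 6.12 CPM in MIA PaCa-2, and its differences in fold change from those lines were log2 2.60 ± 0.52 (adjusted p = 0.0224) and 2.50 ± 0.52 (adjusted p = 0.113). For UNC5B, LHFPL6 and GDF15 every DMSO library of MIA PaCa-2 lay below every DMSO library of BxPC-3. The same held against PANC-1 for LHFPL6 and GDF15, while for UNC5B the DMSO libraries of MIA PaCa-2 and PANC-1 overlapped. The share of all genes that lie apart between lines in this way was not counted. A link between the level with DMSO and the response was not tested. S100P was at 187 to 248 CPM with DMSO in BxPC-3 and rose in PANC-1, from 0.79, 1.46 and 0.815 CPM to 4.47, 5.23 and 3.27 CPM (log2 2.07, adjusted p = 0.0194).

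Of the 68 higher genes, 55 of 68 tested had a positive log2 fold change in BxPC-3 (50.3% of all genes tested in both) with a median of 0.40, and 14 were called higher, where 0.477% of all genes tested in that line were. In PANC-1, 60 of 65 were positive (48.9% of all genes) with a median of 0.59, and 4 were called higher, where 0.0431% of all genes were. Of the 17 lower genes, 10 of 15 were negative in BxPC-3 (49.7% of all genes), with 1 called lower, where 0.848% of all genes tested in that line were, and 12 of 17 were negative in PANC-1 (51.0% of all genes). The stress response lists, with 14 of 28 called in MIA PaCa-2, had 2 called higher and 1 lower of 26 in BxPC-3, beside the 0.477% and 0.848% of all genes there. In PANC-1 they had 0 called of 27 tested, in a line where edgeR called 8 genes higher and 1 lower in all. Their median was 0.37 in BxPC-3 and 0.58 in PANC-1. The list itself was not tested between lines. Among its genes GDF15 differed by the interaction test, and ATF4 (log2 0.38 in BxPC-3 and 0.61 in PANC-1) did not.

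Of 21 interferon response genes 18 fell in BxPC-3, where 0.848% of all genes did, with a median log2 fold change of -1.32. In MIA PaCa-2 none of the 21 passed by edgeR, 5 had an unadjusted p under 0.05 and DESeq2 called 2, while 16 were negative and the median was -0.40. Of all 16254 genes tested there, 1420 had such a p and 8153 were negative. The response differed among the lines for 5 of the 21 by the interaction test, where it did for 0.104% of all genes. IFIT3, an antiviral effector, was at 40.2, 32.9 and 34.5 CPM with DMSO and 22, 17 and 11.9 CPM with GW3965 in MIA PaCa-2, lower in every library (log2 -1.06 ± 0.24, adjusted p = 0.0955). The response of USP18, a brake on the interferon signal, differed from that in BxPC-3 by log2 2.95 ± 0.38 (adjusted p = 0.000247). In PANC-1 the median of the 21 was -0.17.

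**Figure D5:**
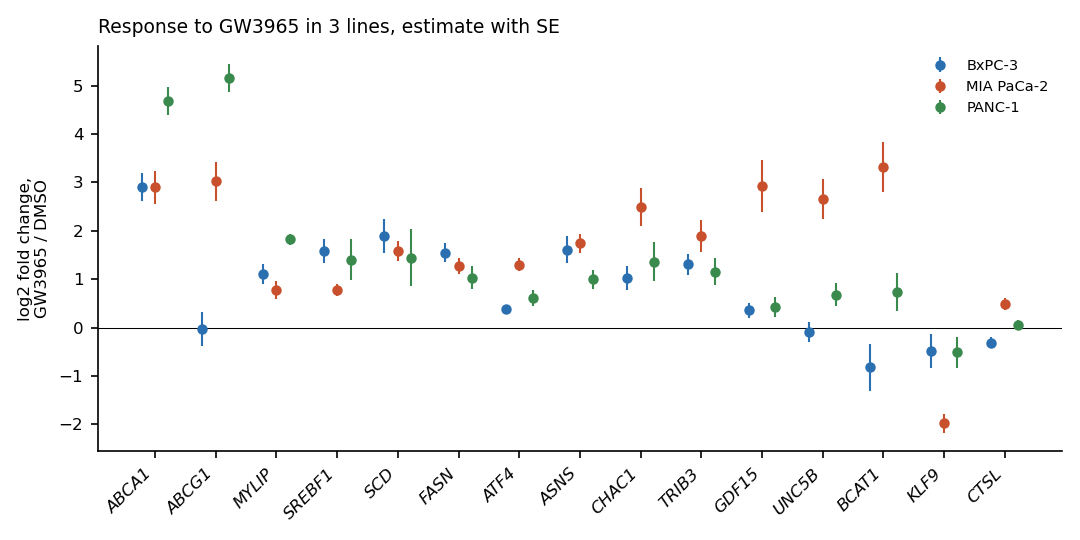
Log2 fold changes with GW3965 in MIA PaCa-2 (orange), BxPC-3 (blue) and PANC-1 (green), with bars of 1 SE from the edgeR fit of each line. ABCG1 lies near 0 in BxPC-3, and the points of GDF15, UNC5B and BCAT1 are highest in MIA PaCa-2.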

How the data were processed

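The authors deposited 1 table of whole-number read counts per gene for 36 libraries. Trim Galore 0.4.4, HISAT2 2.0.2, SAMtools 1.3, StringTie 1.3.1c and the build GRCh38 are named in the submitters' processing notes, with no role or order, while the annotation and the strand setting of the counting are not stated. Of 58658 lines, 407 that name a transcript and 8 that name an assembled locus were left out (at most 0.00396% of a library's counts). Symbols, types and positions were taken from GENCODE 29 by gene identifier.

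The deposited counts were used without change. The 12 MIA PaCa-2 libraries were fitted in edgeR 4.0.16 (R 4.3.3) with 1 mean per group, TMM scaling, filterByExpr and the quasi-likelihood test, so the 1E5 and 3A4 libraries share the estimate of spread. P-values are two-sided, with Benjamini-Hochberg adjustment across the 16254 genes tested and a threshold of 0.05. A fold against a group at 0 uses a floor of 3 counts over that group. The lines were compared through the treatment by line interaction over 36 libraries. The scripts were tested on simulated data.

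The members and the 31 gene lists (487 genes, 445 tested) were chosen with earlier results of these data known. Lists are described by counts and medians, with no test. Named genes were 9 fixed genes (ABCA1, ABCG1, SREBF1, MYLIP, LPCAT3, SCD, FASN, NR1H2 and NR1H3), the 8 strongest rises and 8 strongest falls (called, averaging 2 CPM or more in the 6 libraries, groups apart), up to 5 called members per list, up to 2 members of a list with none called, and the 6 smallest interaction p-values among genes of at least 2 CPM. Alternatives were RLE scaling, no filter, DESeq2 1.42.0, limma-voom (limma 3.58.1), a replicate block, other sets of libraries, thinned counts and leaving out each library. The newer quasi-likelihood method of edgeR was chosen after seeing the data. Results for some genes that the rule names are not reported here.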

Additional observations from a re-analysis of the deposited data

Results flagged for a closer look

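For 10 of the genes named above or by the same rule, the response to GW3965 differed among the 3 lines by the edgeR interaction test over 36 libraries. Of these, 6 were called in MIA PaCa-2. ABCG1 (adjusted p = 2.9e-05) rose in MIA PaCa-2 and PANC-1 and had a log2 fold change of -0.03 in BxPC-3. LHFPL6 (0.000188) was at 0 in the DMSO libraries of MIA PaCa-2 and had counts in every DMSO and GW3965 library of the other lines. S100P (0.00725), UNC5B (0.0091), GDF15 (0.0379) and BCAT1 (0.0411) were the other 4.

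The other 4 were not called in MIA PaCa-2. USP18 (adjusted p = 0.000105), of the interferon response, fell in BxPC-3, as did PRXL2A (0.00116) and the lysosomal membrane gene LAMP3 (0.00073). LAMP3 was at 0 in all DMSO libraries of MIA PaCa-2 and in GW3965 replicate 1, and at 2.41 and 2.30 CPM in GW3965 replicates 2 and 3. CTSL (0.0259), a lysosomal protease, was at 203, 194 and 222 CPM with DMSO and 295, 286 and 289 CPM with GW3965 in MIA PaCa-2, above in every library, and its log2 fold change was -0.31 in BxPC-3.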

How the results depend on the processing

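The 85 called genes became 264 with DESeq2 (196 higher and 68 lower, all 85 shared), 192 in the fit of all 36 libraries (70 shared), 88 with RLE scaling, 103 with no filter, 70 with thinned counts, 65 with the newer quasi-likelihood method, 63 without the shallowest library of each group, 41 without the 1E5 libraries, 22 with only the compared groups and 18 with limma-voom. Leaving out 1 library gave 16 to 85. The 23 genes that differed among lines became 194 with DESeq2, 13 with only the DMSO and GW3965 libraries, and 14 to 39 without 1 library. Same-numbered DMSO and GW3965 libraries correlated in their deviations at 0.0656, 0.256 and 0.321, and those of unlike number at -0.286 to 0.108. By this measure 4 of 6 libraries correlated best with their own number. The labels do not say what a shared number stands for. The main fit did not take the numbers as pairs, so an effect shared by libraries of 1 number may remain in it. With a replicate block the counts were 64 (54 shared) and 52. NR1H2 changed sign about 0, to a log2 fold change of 0.0070 with limma-voom and 0.073 without the shallowest libraries, and ran from -0.16 to 0.030 when 1 library was left out. The cause of these shifts was not tested. Depth limits the low genes most, since GW3965 replicate 3 held 2701393 counts. Over all genes tested, the SE on the log2 scale had a median of 0.269.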
